A study of Mus musculus with 18 samples.

Results

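The cytochrome P450 genes of families 1 to 4 are described here in mouse liver, 4 h after an injection of interleukin 1 beta (IL-1β) or saline. Members were all genes whose symbol was Cyp, a family number from 1 to 4, a subfamily letter and a gene number. The rule found 63 members among 21018 genes listed in at least 1 of the 3 gene count tables. Of these, 59 were listed with Pico, 62 with V4 and 62 with TruSeq, and 59 with all 3 kits. All 63 are annotated as protein coding, and they form 18 subfamilies on 9 chromosomes. Symbols with a further letter, such as Cyp3a41a and Cyp4a12a, are outside the rule.

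The animals were male C57/B6J mice aged 12 weeks with no engineered allele named in the labels. Mice I9579, I9582 and I9583 received 20 µg/kg IL-1β into the peritoneum, and mice U9574, U9575 and U9576 received saline. Livers were perfused with phosphate-buffered saline before they were taken. RNA of each mouse went into 3 library kits: Pico, a strand-specific kit for low input of total RNA, V4, a poly(A) kit that does not keep strand, and TruSeq, a strand-specific poly(A) kit. There were thus 3 mice per treatment in each kit, and the 3 kits do not add animals. Total gene counts were 4024632 to 4134070 per Pico library, 12013453 to 12352473 per V4 library and 12348864 to 12858237 per TruSeq library. Levels below are in CPM, the usual scaling of a gene's count to the total gene count of its library.

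Cytochromes P450 are heme enzymes of the endoplasmic reticulum that insert an oxygen atom into drugs, steroids, fatty acids and other lipids, with electrons supplied by P450 oxidoreductase. Families 1 to 3 carry most of the liver's oxidation of foreign compounds, and family 4 mainly hydroxylates fatty acids and eicosanoids. Their transcription in hepatocytes is driven by nuclear receptors such as CAR, PXR and PPARα, by the aryl hydrocarbon receptor and by liver factors such as HNF4α, and lower P450 expression during inflammation is textbook knowledge.

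What defines the family in sequence is the loop whose cysteine holds the heme iron. The 30 coding bases around it are shown for 1 member of each larger group, from the mm9 annotation, with the cysteine codon in capitals. The loop was searched as an exact residue pattern in the transcript with the longest coding sequence of each gene. The pattern matched in 60 of the 63 members, and not in Cyp2b10, Cyp2s1 and Cyp3a59. A missing match does not show that the loop is absent.
Cyp1a2: ttcggcttgggaaagcgccggTGCattggg
Cyp2a5: ttttccattggaaaacggtatTGTttcgga
Cyp2c29: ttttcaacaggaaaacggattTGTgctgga
Cyp2d9: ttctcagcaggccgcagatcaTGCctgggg
Cyp2e1: ttttctgcaggaaagcgcgtgTGTgttgga
Cyp3a11: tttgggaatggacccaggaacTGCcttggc
Cyp4a14: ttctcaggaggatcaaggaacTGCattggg
Cyp4f14: ttctcggcgggacccaggaacTGCatagga
The Cyp1a2 stretch lies in 1 exon on the minus strand at chr9:57525203-57525232, and the Cyp3a11 stretch in 1 exon on the minus strand at chr5:146670381-146670410.

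Near-identical copies limit what counts can say about single members. Of the 63 members, 26 shared at least 1 window of 125 bases with another gene, and 5 shared at least 10% of their windows. Those 5 were Cyp2c40, Cyp2c69, Cyp2c67, Cyp2c68 and Cyp4a32, so their values are uncertain. Cyp2a4 and Cyp2a5 had 98.45% identical coding bases, which makes the Cyp2a4 level uncertain too.

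After IL-1β far more members fell than rose in each kit. With TruSeq, 40 of 62 members were lower and 2 were higher at an adjusted p of at most 0.05, beside 21.8% of all genes lower and 12.3% higher. With Pico, 29 of 59 members were lower and 1 was higher, beside 10.8% and 6.78% of all genes. With V4, 20 of 62 were lower and 2 were higher, beside 7.41% and 3.6% of all genes. The test was limma-voom over all genes of a kit with Benjamini-Hochberg adjustment, and a log2 fold change below 0 means lower after IL-1β. In bulk liver, fewer cells of a type and less RNA per cell cannot be told apart.

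The median log2 fold change of the members was -0.65 with TruSeq, -0.56 with Pico and -0.63 with V4, against -0.17, -0.12 and -0.22 over all genes tested. Relative to the median of all genes, the members' median stood at -0.48, -0.44 and -0.41. Below the all-gene median stood 52 of 62 members with TruSeq, 50 of 59 with Pico and 52 of 62 with V4. The split between lower and higher genes moved with the scaling of libraries. With TMM factors the all-gene medians were -0.01, 0.02 and -0.06, and the share of lower genes among those called went from 64.0%, 61.4% and 67.3% to 49.1%, 47.1% and 50.3%. Under TMM 37 members were lower and 2 higher with TruSeq, 23 and 1 with Pico, and 7 and 2 with V4.

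A mean of at least 20 counts per library was reached by 48 members with TruSeq, 41 with Pico and 45 with V4. Among these, 39, 28 and 20 were lower and 2, 1 and 1 were higher, while 30.8%, 17.4% and 10.7% of all genes at this level were lower. In CPM the IL-1β mice all lay below the saline mice for 40 TruSeq members, 29 Pico members and 31 V4 members, beside 27.9%, 18.6% and 18.6% of all genes. Members under a mean of 20 counts numbered 14, 18 and 17, and most of them, such as Cyp2b13, Cyp2c65, Cyp2d34 and Cyp3a57, were not called. Calls of named members with TruSeq were lost without 1 mouse for Cyp2c29 and Cyp2c38 alone. With Pico this befell Cyp2c38, Cyp2j5, Cyp2j9, Cyp4a31, Cyp4f14 and Cyp4v3, with adjusted p up to 0.263, and with V4 Cyp2b10, Cyp2d9, Cyp2e1, Cyp2f2, Cyp3a11, Cyp4f14 and Cyp4v3, with adjusted p up to 0.104.

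**Figure D1:**
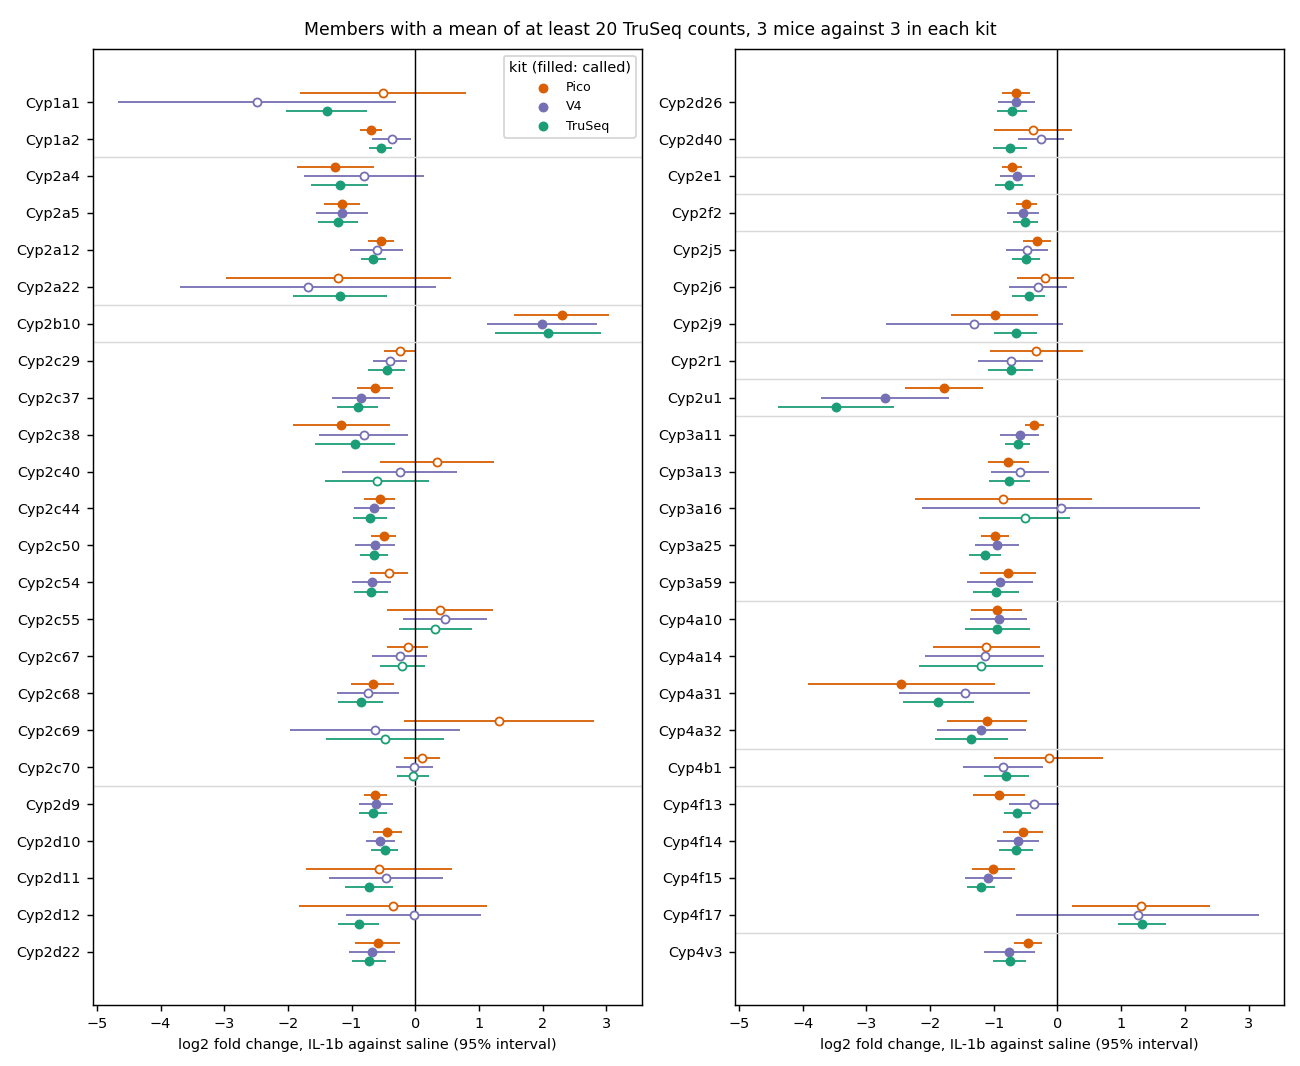
Log2 fold change of IL-1β against saline for the 48 members with a mean of at least 20 TruSeq counts, by kit and subfamily. Filled points are called at an adjusted p of at most 0.05, and the lines are 95% intervals of the fit with 3 mice per treatment. Most points lie below 0, and Cyp2b10 stands at 2.08 with TruSeq, 2.30 with Pico and 1.99 with V4.

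As a group the members took a smaller part of the library after IL-1β. With TruSeq they held 1.75%, 1.78% and 1.76% of gene counts in the IL-1β mice and 2.84%, 2.79% and 2.73% in the saline mice. With Pico the means were 1.32% ± 0.0137 (SD, n = 3) and 1.89% ± 0.110 (SD, n = 3), and with V4 they were 2.29% ± 0.141 and 3.42% ± 0.302. The treatments did not overlap in any kit, and the exact two-sided permutation p was 0.1, the smallest that 3 against 3 allows. The 3 largest TruSeq members, Cyp2e1, Cyp3a11 and Cyp2c29, made up 56.0% of member counts under both treatments.

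**Figure D2:**
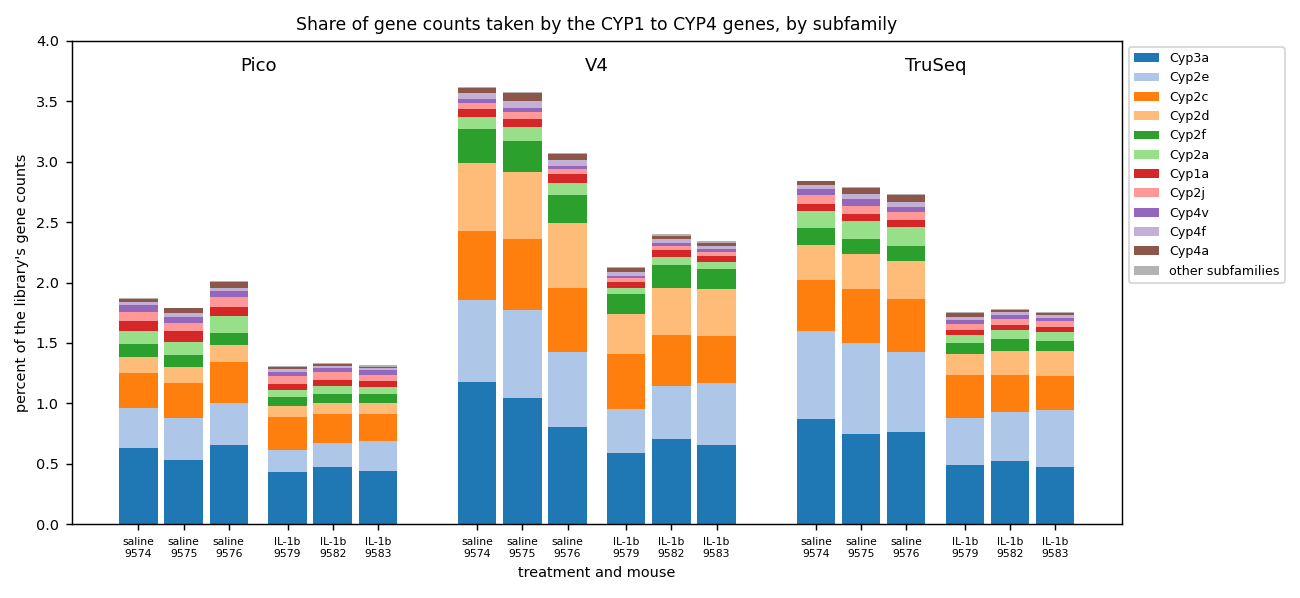
Percent of each library's gene counts taken by the members, stacked by subfamily, with 1 bar per mouse and kit. The TruSeq bars reach 1.75% to 1.78% after IL-1β and 2.73% to 2.84% after saline.

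Per length, the 3 highest members in saline liver with TruSeq and with Pico were Cyp2e1, Cyp3a11 and Cyp2c29, while with V4 Cyp2d9 was at rank 3 and Cyp2c29 at rank 6. As TruSeq CPM per kilobase of exon, Cyp2e1 stood at 3907 ± 255 (SD, n = 3), Cyp3a11 at 2908 ± 249 and Cyp2c29 at 867 ± 81.8. Cyp2d9 followed at 861, and its range overlapped that of Cyp2c29. Cyp2a5 moved from rank 6 to rank 11 after IL-1β and Cyp3a25 from rank 8 to rank 13, while Cyp2c70 moved from rank 12 to rank 7.

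**Figure D3:**
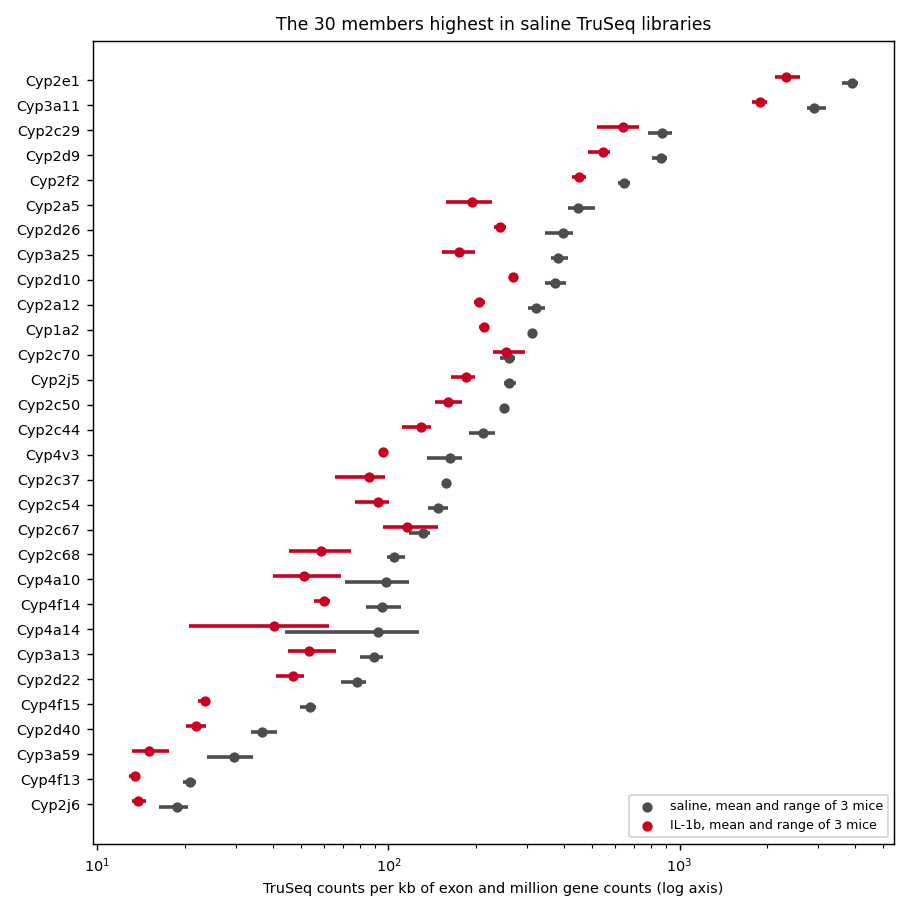
Level of the 30 members highest in saline liver, as TruSeq CPM per kilobase of exon on a log axis. Points are treatment means, and lines run from the lowest to the highest mouse. Cyp2e1 leads at a saline mean of 3907, and Cyp2c70 is among the members whose ranges for both treatments overlap.

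Family 1 enzymes oxidize planar aromatic compounds, and their genes are targets of the aryl hydrocarbon receptor. Cyp1a2, which metabolizes caffeine and is abundant in hepatocytes, had TruSeq levels of 387, 404 and 416 CPM after IL-1β and 597, 572 and 592 CPM after saline. All IL-1β mice were below all saline mice, and the log2 fold change was -0.54 (SE 0.08, adjusted p = 0.000742, limma-voom). With Pico it was -0.69 (SE 0.08, adjusted p = 1.74e-05), and with V4 it was -0.37 (SE 0.14, adjusted p = 0.123), which missed the threshold although the mice did not overlap. Cyp1a1, the inducible member, was low at 0.972 to 1.05 CPM after IL-1β and 2.13 to 3.28 CPM after saline with TruSeq, and fell by 1.39 on the log2 scale there (adjusted p = 0.00449). Its values with Pico (-0.51, adjusted p = 0.643) and V4 (-2.49, adjusted p = 0.144) were not called, and the treatments overlapped in both. Cyp1b1 passed the test in no kit.

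All 4 Cyp2a members fell with TruSeq, 3 fell with Pico and 1 with V4. Cyp2a5, which oxidizes coumarin and nicotine, is at chr7:27620324-27628567 on the plus strand of mm9. Its TruSeq levels were 327, 469 and 411 CPM after IL-1β and 863, 859 and 1061 CPM after saline. The groups were well apart, with log2 fold changes of -1.21 (SE 0.14) with TruSeq, -1.15 (SE 0.13) with Pico and -1.15 (SE 0.18) with V4. The adjusted p-values from limma-voom were 0.00018, 1.16e-05 and 0.00294.

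Cyp2b10 was the member that rose in all 3 kits. It is a drug-inducible enzyme known as a target of CAR. Its TruSeq levels were 51, 77.8 and 110.3 CPM after IL-1β and 9.72, 20.2 and 28.9 CPM after saline. Pico gave 39.3, 51.2 and 69.3 CPM against 5.63, 10.7 and 18.6 CPM, and V4 gave 71.5, 116 and 195 CPM against 18.1, 41.4 and 33.9 CPM. Every IL-1β mouse was above every saline mouse in each kit, although both treatments spread widely. The log2 fold change was 2.08 (SE 0.37, adjusted p = 0.00206) with TruSeq, 2.30 (SE 0.35, adjusted p = 0.000197) with Pico and 1.99 (SE 0.39, adjusted p = 0.00901) with V4. The V4 call was lost without mouse U9574 (1.65, adjusted p = 0.052) and without U9576 (2.09, adjusted p = 0.0513). Cyp2b9 and Cyp2b13 were too low to be called.

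Because Cyp2b10 rose most with TruSeq among the called members, the 250 bases before its RefSeq start are shown. They were found by exact match in mm9 at chr7:26682427-26682676 on the plus strand, with the letters GCGTG (or CACGC on the other strand) and TTGCNNAA in capitals.
Cyp2b10: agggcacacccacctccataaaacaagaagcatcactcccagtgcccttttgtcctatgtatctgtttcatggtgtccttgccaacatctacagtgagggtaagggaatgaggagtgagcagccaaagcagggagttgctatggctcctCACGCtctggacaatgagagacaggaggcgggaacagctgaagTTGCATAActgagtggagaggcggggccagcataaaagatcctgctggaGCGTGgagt
The core of the xenobiotic response element, GCGTG, was in 17.5% of 57 member windows of 300 bases, from 52 members, and in 32.4% of all 32851 windows. The C/EBP-type letters TTGCNNAA were in 29.8% and 10.8%. A match is only a description of the letters.

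The Cyp2c subfamily was split. Its enzymes oxidize drugs and make epoxides of arachidonic acid, and 7 of its 14 TruSeq members fell, as did 5 of 13 with Pico and 4 of 15 with V4, with no member higher. Cyp2c29 had TruSeq levels of 1319, 1403 and 1007 CPM after IL-1β and 1511, 1709.5 and 1825 CPM after saline. The mice did not overlap, and the log2 fold change was -0.45 (SE 0.13, adjusted p = 0.0246). This call did not hold under TMM scaling (-0.29, adjusted p = 0.114) or without mouse I9579, I9583, U9575 or U9576, where adjusted p ran up to 0.115. With Pico, Cyp2c29 overlapped between treatments (-0.24, SE 0.12, adjusted p = 0.208). With V4 it did not overlap and was not called (-0.40, SE 0.12, adjusted p = 0.0598).

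Cyp2c37, Cyp2c44 and Cyp2c50 fell in each kit, with TruSeq log2 fold changes of -0.91, -0.70 and -0.65. Cyp2c38 had 10.3 to 20.6 CPM after IL-1β and 22.8 to 41.9 CPM after saline with TruSeq, and fell there (-0.95, adjusted p = 0.0253) and Pico (-1.16, adjusted p = 0.0345), and both calls were lost under TMM (adjusted p = 0.0522 and 0.0562). Without I9583 its log2 fold change was -0.63 (adjusted p = 0.107) with TruSeq. With V4 it was not called (-0.81, adjusted p = 0.137).

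Cyp2c70, which hydroxylates bile acids in mice, differed from these. Its TruSeq levels were 583, 453 and 470.3 CPM after IL-1β and 541, 526 and 477 CPM after saline. The treatments overlapped, with a log2 fold change of -0.04 (95% interval -0.29 to 0.21). The intervals were -0.18 to 0.38 with Pico and -0.31 to 0.28 with V4. Cyp2c67, Cyp2c40 and Cyp2c69 were not called either, and in all 3 kits mouse I9579 had the highest IL-1β level of each.

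Letters of an HNF4 type lay near the start of called and uncalled members alike. The letters CAAAGTCCA were in 14.0% of member windows and 0.475% of all windows. Of the 8 member windows with them, those of Cyp3a11 and Cyp2c68 belong to members called lower with TruSeq. Cyp2c40, Cyp2c67, Cyp2c68 and Cyp2c69 are close copies, so their 4 matches are not separate observations. An uncalled and a called example are shown as 41 bases with the match in capitals, Cyp2c70 at chr19:40261816-40261856 and Cyp3a11 at chr5:146691515-146691555, both on the minus strand of mm9.
Cyp2c70: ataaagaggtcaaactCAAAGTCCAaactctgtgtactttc
Cyp3a11: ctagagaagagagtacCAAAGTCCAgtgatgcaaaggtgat
Cyp2c68, which has the same letters and 97.15% coding identity to Cyp2c67, fell with TruSeq (-0.86, adjusted p = 0.00255) while Cyp2c67 was at -0.20 (adjusted p = 0.372). The 2 genes share stretches as long as a read, and the difference between them was not tested.

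Of the 8 Cyp2d members, 7 fell with TruSeq, 4 with Pico and 4 with V4. Cyp2d9, a steroid hydroxylase of male mouse liver, had 802, 939 and 952 CPM after IL-1β and 1496, 1325 and 1443 CPM after saline with TruSeq. The groups were apart in each kit, with log2 fold changes of -0.67 (SE 0.10), -0.63 (SE 0.09) with Pico and -0.62 (SE 0.12) with V4. The V4 call was lost under TMM (adjusted p = 0.0672). Cyp2d12, at 5.59 to 7.01 CPM against 11.5 to 12.4 CPM, was lower with TruSeq (-0.89, adjusted p = 0.00128), at -0.35 with Pico and at -0.03 with V4, and the last value changed sign under other settings.

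Cyp2e1, which oxidizes ethanol and acetaminophen, had the highest mean TruSeq count over all 6 mice, while Cyp3a11 had the higher mean after IL-1β. Cyp2e1 had 3876, 4066 and 4738 CPM after IL-1β and 7312, 7494 and 6611 CPM after saline. The levels fell in every kit, with log2 fold changes of -0.76 (SE 0.10, adjusted p = 0.000326) with TruSeq, -0.71 (SE 0.08, adjusted p = 5.96e-06) with Pico and -0.63 (SE 0.13, adjusted p = 0.00906) with V4. Cyp2f2, which oxidizes naphthalene, had 922, 966 and 865 CPM after IL-1β and 1373, 1279.9 and 1248 CPM after saline with TruSeq. It fell without overlap of the mice in each kit, with log2 fold changes of -0.50, -0.49 and -0.54. The antisense gene Gm15883 covers 13.53% of the Cyp2f2 exon bases, and V4 cannot separate its reads. TMM scaling ended the V4 calls of Cyp2e1 (adjusted p = 0.0625) and Cyp2f2 (adjusted p = 0.0815).

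Cyp2j enzymes make epoxides of arachidonic acid. Cyp2j5, found in liver and kidney, had 466, 452 and 384 CPM after IL-1β and 598, 645 and 584 CPM after saline with TruSeq, and did not overlap. It fell by 0.49 on the log2 scale (adjusted p = 0.00415), and its Pico call (-0.33, adjusted p = 0.0388) was lost under TMM (-0.20, adjusted p = 0.245). With V4 Cyp2j5 was at -0.49 (adjusted p = 0.0624). Cyp2j9 fell with TruSeq (-0.65, at 7.42 to 9.15 CPM after IL-1β and up to 14.8 CPM after saline) and with Pico (-0.99), and was at -1.31 with V4 (adjusted p = 0.23). Of 9 listed epoxygenases, 7 were tested in each kit, and 6 of these 7 fell with TruSeq, 4 with Pico and 1 with V4.

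Cyp2u1, a fatty acid hydroxylase of wide tissue distribution, had the largest TruSeq drop of any member. Its levels were 0.644, 1.21 and 1.45 CPM after IL-1β and 12.8, 15.8 and 8.63 CPM after saline. With Pico they were 10.6, 10.4 and 11.4 CPM against 44.1, 44.9 and 26.6 CPM, and with V4 1.89, 1.33 and 1.99 CPM against 13.3, 9.68 and 11.5 CPM. No IL-1β mouse reached any saline mouse in any kit. The log2 fold change was -3.48 (SE 0.41, adjusted p = 0.000201) with TruSeq, -1.78 (SE 0.29, adjusted p = 0.000379) with Pico and -2.71 (SE 0.45, adjusted p = 0.00389) with V4. The gene lies at chr3:130993409-131006145 on the minus strand, and 23.51% of its exon bases overlap the antisense gene 4930534D22Rik, whose reads V4 cannot separate. Cyp2r1, a vitamin D hydroxylase, had 8.79 to 11.4 CPM after IL-1β and 14.4 to 18.4 CPM after saline with TruSeq. It fell there (-0.74, adjusted p = 0.00527), and was not called with V4 (-0.74, adjusted p = 0.067) or Pico (-0.33, adjusted p = 0.584).

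Cyp3a11, the main mouse counterpart of the drug-metabolizing CYP3A4 of human liver, had 4419, 4666 and 4161 CPM after IL-1β and 7485, 6429 and 6532 CPM after saline with TruSeq. Pico gave 3885, 4242 and 4011 CPM against 5422, 4546 and 5718 CPM. The treatments did not overlap in any kit. The log2 fold change was -0.62 (SE 0.09) with TruSeq, -0.36 (SE 0.07) with Pico and -0.59 (SE 0.14) with V4, with adjusted p-values of 0.000619, 0.00176 and 0.0197. TMM ended the V4 call (adjusted p = 0.118), and edgeR ended the Pico call (adjusted p = 0.0842).

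Cyp3a25 fell further, from 864, 756 and 762 CPM after saline to 356, 414 and 319 CPM after IL-1β with TruSeq. Its log2 fold changes were -1.13, -0.98 and -0.95 with TruSeq, Pico and V4, all called. Of 7 Cyp3a members, 4 fell with TruSeq, 4 with Pico and 3 with V4, and the low members Cyp3a16, Cyp3a44 and Cyp3a57 passed in none.

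Cyp4a enzymes hydroxylate the end of fatty acid chains, and their genes are known targets of PPARα. Of 4 members, 3 fell with TruSeq, 3 with Pico and 2 with V4. Cyp4a10 had 145, 94.4 and 84.6 CPM after IL-1β and 149.5, 248 and 222 CPM after saline with TruSeq, without overlap, and its log2 fold change was -0.94. Cyp4a14 had 163, 98.1 and 53.7 CPM against 115, 275 and 331 CPM. Saline mouse U9574 lay within the IL-1β range, and the log2 fold change of -1.20 (SE 0.43, adjusted p = 0.0579) missed the threshold. Without U9574 it was -1.67 (adjusted p = 0.0315), and without I9579 it was -1.59 (adjusted p = 0.0454). With Pico (-1.12, adjusted p = 0.0649) and V4 (-1.14, adjusted p = 0.116) it was not called either. Cyp4a31, at 1.38 to 1.85 CPM against 5.37 to 7.66 CPM, fell with TruSeq (-1.87, adjusted p = 0.000424) and Pico (-2.45, adjusted p = 0.0208), and was at -1.46 with V4 (adjusted p = 0.0724).

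Cyp4f enzymes inactivate leukotrienes and hydroxylate fatty acids. Cyp4f15 had 50.4, 55.1 and 54.3 CPM after IL-1β and 113, 129 and 126 CPM after saline with TruSeq. The mice within a treatment lay close together, and the log2 fold change was -1.20 (SE 0.10, adjusted p = 2.46e-05), with -1.01 with Pico and -1.09 with V4, both called. Cyp4f14, at 122 to 139 CPM against 184 to 243 CPM with TruSeq, fell in all kits (-0.65, -0.54 and -0.61), and its Pico and V4 calls were lost under TMM (adjusted p = 0.069 and 0.0936).

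Cyp4f17 went the other way with TruSeq. Its levels were 14.9, 13.0 and 14.8 CPM after IL-1β and 6.32, 4.53 and 6.38 CPM after saline. The groups were apart, and the log2 fold change was 1.32 (SE 0.17, adjusted p = 0.000313). With Pico it was 1.31 (adjusted p = 0.0912), called by edgeR (adjusted p = 0.00419) and DESeq2 (adjusted p = 0.0425), and with V4 it was 1.26 (adjusted p = 0.429). Cyp4f39 was called higher with V4 (3.09, adjusted p = 0.0418) on levels of at most 1.15 CPM, and this call rests on few counts. Cyp4v3, a fatty acid hydroxylase at 278 to 286 CPM against 401 to 529 CPM with TruSeq, fell in all kits (-0.75, -0.47 and -0.76), with an adjusted p of 0.09 under TMM for V4, and 10.61% of its exon bases overlap Klkb1 on the same strand. Cyp4b1, at 6.88 to 8.14 CPM against 11.3 to 15.2 CPM, fell with TruSeq (-0.81, adjusted p = 0.00365), and was not called with Pico (-0.14, adjusted p = 0.849) or V4 (-0.86, adjusted p = 0.0791).

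**Figure D4:**
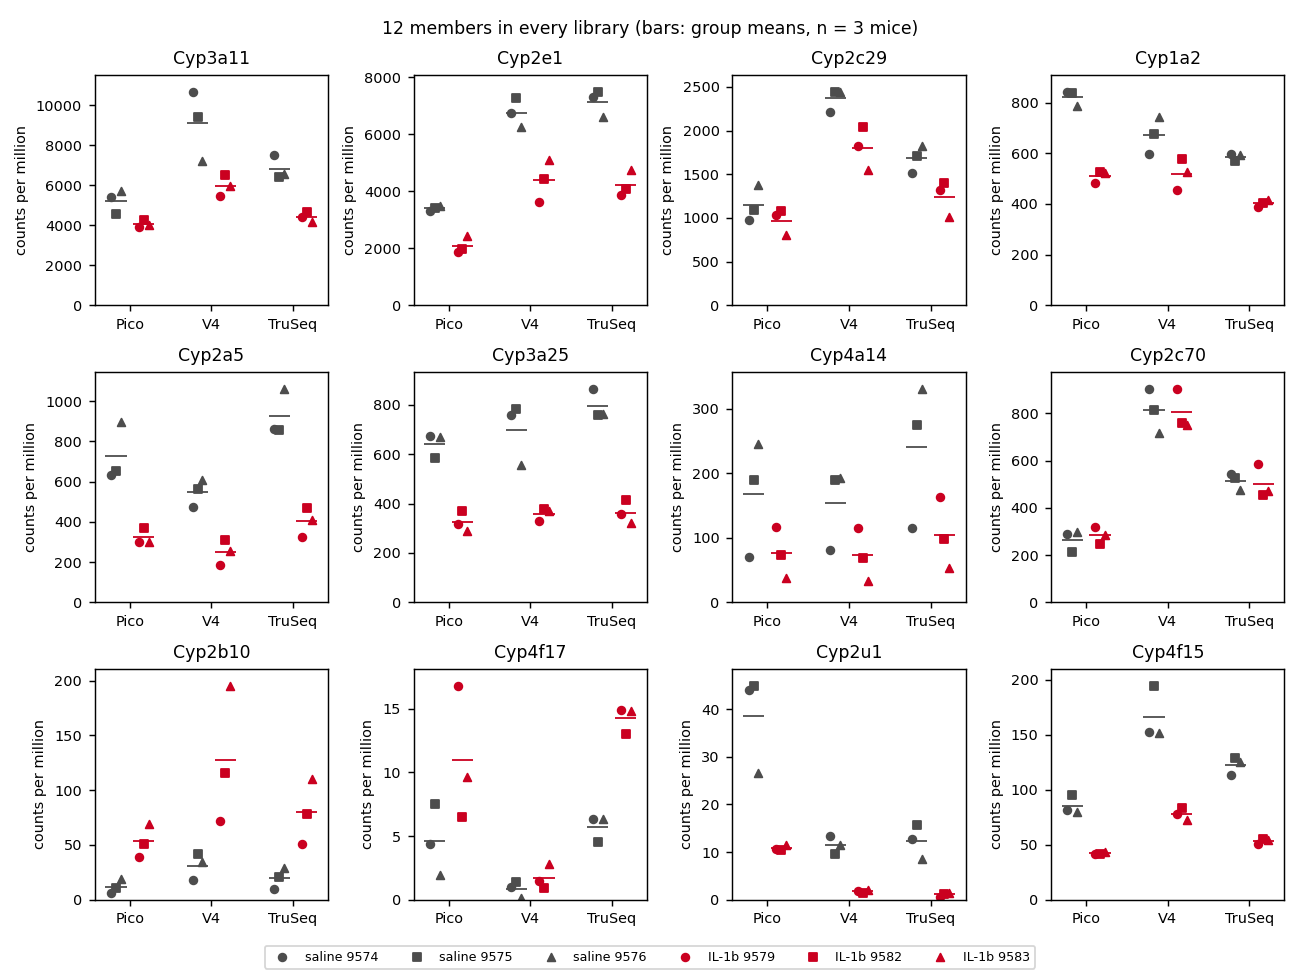
CPM of 12 members in each mouse, by kit, on linear axes that start at 0. Cyp2b10 rises, with TruSeq values of 51 to 110.3 after IL-1β against 9.72 to 28.9 after saline, while the Cyp4a14 values of the treatments overlap.

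The response of each member was also compared between kits, as the question of the study was how kits differ. By limma-voom no member was called for a different response between Pico and TruSeq or between V4 and TruSeq. Among all genes 0% of 17207 and 0% of 17147 were called. The lack of calls does not show that the responses were equal. At an unadjusted p under 0.05 there were 3 of 59 members (945 genes) and 1 of 61 members (1090 genes). In the limma-voom fit the 3 were Cyp2s1, Cyp2u1 (difference 1.69, unadjusted p = 0.0076) and Cyp3a11 (difference 0.26, unadjusted p = 0.040), with adjusted p = 0.90 at the smallest. The 1 was Cyp2d40 (difference 0.48, unadjusted p = 0.025, adjusted p = 0.673 in the same fit). By edgeR and DESeq2 0 members were called too, while DESeq2 called 4 and 62 genes. In limma-voom with the mouse as a block, 11 of 59 and 2 of 61 members had an unadjusted p under 0.05. Among all genes these were 1278 of 17207 and 1263 of 17147, and 0 members were called in that fit. The kits also differ in RNA input, sequencer and read length, and the paper credits the TruSeq experiment to an earlier study. These differences cannot be told apart from the chemistry.

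Regulators of these genes moved in both directions with TruSeq and Pico. Of 22 listed receptors and factors, 10 were lower and 4 higher with TruSeq, 12 and 2 with Pico, and 9 and 0 with V4. Nr1i3, which encodes CAR, had 19.2, 22.4 and 28.0 CPM after IL-1β and 578, 483 and 411 CPM after saline with TruSeq. It fell in all kits, with log2 fold changes of -4.40, -3.94 and -3.32. Nr1i2, which encodes PXR, was lower with Pico (-0.82, adjusted p = 0.00502) and at -0.34 with TruSeq (adjusted p = 0.0568). Hnf4a was higher with TruSeq (0.91) and Pico (0.65). Ppara was not called in any kit. Among the 17 members listed as CAR and PXR targets, 11 (64.7%) were lower and 1 was higher with TruSeq, with a median of -0.65. This was close to all 62 members in that kit, of which 64.5% were lower, with a median of -0.65.

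Of 9 listed electron donors and membrane partners, 8 were tested in each kit. Of these 8 genes, 7 were lower with TruSeq, 5 with Pico and 2 with V4, and none was called higher. Their medians were -0.46, -0.57 and -0.51, beside -0.17, -0.12 and -0.22 over all genes. Cyb5, which encodes cytochrome b5, fell in all kits, with log2 fold changes of -0.71, -0.71 and -0.60. Por, which encodes the oxidoreductase, fell with Pico (-0.67, adjusted p = 0.00185) and was at -0.34 with TruSeq (adjusted p = 0.278). Of 12 heme genes 5 were lower and 1 was higher with TruSeq, 4 and 1 with Pico, and 2 and 1 with V4. Cpox, of heme synthesis, fell with a TruSeq log2 fold change of -1.32, and Hmox1, which breaks heme down, rose with 1.33.

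P450 genes of other families gave 7 lower and 1 higher of 14 with TruSeq, 5 and 1 of 15 with Pico and 4 and 0 of 13 with V4. Cyp7a1, the rate-limiting enzyme of bile acid synthesis, had 2.25, 5.91 and 6.29 CPM after IL-1β and 247, 216 and 302 CPM after saline. Its log2 fold change was -5.84 with TruSeq (adjusted p = 2.68e-06), beyond that of any family 1 to 4 member in that kit.

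Markers of other cells moved with the treatment, and their part in these results was not tested. Hepatocyte markers summed to 62437 to 69675 CPM after IL-1β and 83328 to 100968 CPM after saline with TruSeq, with 2 of 5 lower and 1 higher. Of 6 neutrophil markers, 5 were higher with TruSeq, and their sum was 41.4 to 83.8 CPM after IL-1β and 1.80 to 3.08 CPM after saline, with 1 of them at 0 in all saline mice. The neutrophil sums were 31.9 to 48.5 CPM against 0.242 to 1.71 CPM with Pico and 41.6 to 81.3 CPM against 2.07 to 4.66 CPM with V4. With TruSeq, Kupffer cell markers summed to 65.8 to 94.5 CPM against 134 to 223 CPM, with 5 of 7 lower and 1 higher. Endothelial markers were 4 lower and 1 higher of 5 there, stellate markers 3 lower of 5, and cholangiocyte markers 1 lower and 2 higher of 5. Of all TruSeq genes 21.8% were lower and 12.3% higher. With V4, 2 of 7 Kupffer cell, 2 of 5 endothelial and 1 of 5 stellate markers were lower. With Pico these were 4, 3 and 2, with 1 endothelial marker higher. Cholangiocyte markers gave 0 calls with V4 and 1 higher with Pico. Pericentral genes were 5 lower of 10 with TruSeq, and periportal genes 7 lower and 1 higher of 10.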

How the data were processed

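Liver RNA of 6 mice was sequenced with 3 kits in 18 libraries. The authors aligned reads with GSNAP to mm9, per the submitters' processing notes, and normalized and counted them with their PORT pipeline, which resamples reads to normalize them. The deposited values are whole-number counts per gene, with sense counts used for the strand-specific kits. Genes with a count above 0 in at least 1 library were tested with limma 3.58.1 (voom, library totals, no further scaling) in R 4.3.3, separately by kit, with treatment as the only term, and called at an adjusted p of at most 0.05. Differences between kits were tested as kit-by-treatment terms over 12 libraries. Alternatives were edgeR 4.0.16, DESeq2 1.42.0, TMM factors, a filter of at least 10 counts in at least 3 libraries, thinning to 4024632 counts, other thresholds, leaving out each mouse, and the mouse as a replicate block. Scripts were tested on simulated data.

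Same-numbered libraries of different kits are the same animal. The pairing rests on the mouse numbers in the labels. Deviations from the group means correlated for every mouse, at 0.183 or above between Pico and TruSeq and at 0.175 or above between V4 and TruSeq. Libraries of different mice were not compared in this way, so these values do not test the pairing. Described with values and tests were Cyp2c29, Cyp3a11, Cyp2e1 and Cyp1a2 and, by subfamily, the member with most TruSeq counts and the called members that fell and rose most with TruSeq, among those averaging 20 TruSeq counts or more. Other members, Cyp4f39 among them, were named as examples, after their values were seen. The members and gene lists were chosen with earlier results of these data known. Promoter windows are from RefSeq (GRCm38.p6) and were placed in mm9 by exact match, with none read for Cyp2u1, Cyp4a31 and Cyp4f17, and annotation is GENCODE on mm9. Protein sequences were not used here. P-values measure the spread between 3 mice per treatment, and RNA of 1 mouse in 3 kits is 1 animal.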

Additional observations from a re-analysis of the deposited data

How the results depend on the processing

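Leaving out 1 mouse gave 18 to 27 lower members with Pico (29 with all mice), 6 to 24 with V4 (20) and 35 to 42 with TruSeq (40), and 1, 0 to 1 and 2 to 4 higher members. The V4 count was lowest without U9575. Lower V4 members numbered 6 by edgeR, 12 by DESeq2, 7 with TMM factors and 6 at an adjusted p of at most 0.01, and higher V4 members numbered 1 by edgeR, DESeq2, the filter on low counts and the stricter threshold. Higher Pico members numbered 2 by edgeR and DESeq2 and 3 at an adjusted p of at most 0.1. The share difference was -0.451, -0.816 and -0.734 percentage points without the largest member (Pico, V4, TruSeq), against -0.569, -1.13 and -1.02 with it, and stayed within -0.617 to -0.509, -1.30 to -1.03 and -1.05 to -0.998 without any 1 mouse. The log2 fold change of Cyp4b1 with Pico was 0.04 without I9579 and 0.24 without U9574 (range -0.64 to 0.24 without any 1 mouse), and that of Cyp2d12 with V4 was 0.13 under TMM, 0.13 without I9583 and 0.49 without U9576 (range -0.32 to 0.49). Of 826 log2 fold changes of named members under alternatives, 716 kept direction and call, 89 lost the call, 16 gained it and 5 reversed. The cause was not tested.

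With the mouse as a replicate block in the comparison of kits, 0 members were called in either pair of kits, as without it. Within a kit, no paired analysis was possible because each mouse received 1 treatment. Members under 20 counts per library could not be tested well at this depth.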
